A study of Homo sapiens with 4 samples.

Results

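Interferon-stimulated genes were followed in Jurkat T cells as a module of 42 listed genes, chosen by name with earlier results of these data known. They were followed through the probe sets whose only gene symbol in the platform annotation is one of theirs. Of the 42 genes, 41 had such a probe set (82 probe sets in all), 38 had a probe set past the filter on dim signals (75 probe sets), and these 38 are counted below among the 13717 genes measured. The filter asked for a signal of at least 56.4, the median of all signals, on the highest of the 4 arrays. MX1, IFI44L and TRIM22 did not reach it on any array, and STAT2 is not analysed here. Of the 38 genes, 35 reached 56.4 on every array, while IFIT1, MX2 and IFI27 reached it on some arrays only. Of the 38, 29 were within 2-fold in each of the 4 comparisons made here, as were 72.1% of all genes.

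Jurkat is an established human T cell leukaemia line. It was used here as a control line, whose construct the sample titles call a vector and the design text a control hairpin, and as an shIKKE line, which carries a short hairpin RNA against IKKε. Each line was given solvent, or 10 ng/ml PMA with 0.5 uM ionomycin, for 3 h, which made 4 groups of 1 array each. PMA, a phorbol ester, switches on protein kinase C, and ionomycin is a calcium ionophore. Together they act below the T cell receptor, and neither is an interferon. Whether each line is 1 clone or a pool is not given in the sources used here. With 1 array per group there is no replicate check of any difference between 2 arrays, so these are values with no test, and the number of arrays limits their precision. In RNA from whole cultures, fewer cells with a transcript and less of it per cell cannot be told apart.

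Interferon-stimulated genes are switched on when type I or type III interferon binds its receptor and the kinases JAK1 and TYK2 pass the signal on to a complex that holds IRF9 and binds a DNA motif named the interferon-stimulated response element. Their products block virus entry, sense or degrade foreign RNA, tag proteins with ISG15 and raise antigen presentation, and many cells keep a low tonic level of them. IKKε, encoded by IKBKE, and its relative TBK1 phosphorylate IRF3 and so lie upstream of interferon production.

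RNA integrity was read as the ratio of 5′ to 3′ signal. For ACTB it was 0.244 with solvent and 0.401 with stimulation in the control line, and 0.339 and 0.266 in the shIKKE line. For GAPDH it lay between 1.04 and 1.17 over the arrays. The brighter IKBKE probe set read 339.9 with solvent and 520.2 with stimulation in the control line, and 180.2 and 248 in the shIKKE line; the dimmer one read 218 and 311, then 287 and 279.8, so that the direction with solvent differed between them. All 12 listed T cell markers were past the filter on all 4 arrays. Of the other markers with a probe set, 3 of 5 for B cells, 2 of 4 for myeloid cells, 1 of 4 for plasmacytoid dendritic cells and 3 of 6 for fibroblasts and epithelium passed it, with summed signals of 683 to 833, 88.4 to 224, 811 to 1085 and 486 to 707.9, against 81349.5 to 87052 for T cells. The monocyte marker CD14 read 2.89 to 8.10, and CLEC4C, LILRA4 and IL3RA, markers of plasmacytoid dendritic cells, read 4.76 to 24.5, all below the filter. TCF4, the other listed marker of plasmacytoid dendritic cells, read 776 to 1060 and made up most of their summed signal. The myeloid marker ITGAM read 42.3 to 103. The summed myeloid signal was highest on the stimulated shIKKE array, where CSF1R read 107 against 7.62 to 29.3 elsewhere, and its part in the results was not tested. The solvent arrays of the lines differed in EGR1, an immediate early gene, which read 9953 with solvent and 23198 with stimulation in the control line, and 1035 and 18503 in the shIKKE line. Counts of stimulation are also given below with the solvent array of the other line as baseline.

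The promoters of these genes are shown first because the response element is what the module is known to share. RefSeq promoters (GRCh38.p14, 250 bases before to 50 after each start) were matched by symbol for 34 of the 42 genes, and the response element was searched on both strands as GAAA, any 2 bases and GAAA again. It occurred in 24 of the 34 genes (70.6%), and in 1195 of the 27305 genes with a listed promoter (4.38%), or 3.57% of single promoters. The motif TTCNNNGAA, the core of the gamma-activated site, was found in 10 of the 34 (29.4%) and in 9.38% of all genes; matches of the motifs were counted apart, also where they overlap. A match is a description of the letters and not a measured site. The 60-base stretches below lie upstream of the start, read on the gene's strand, and carry the matches to that spaced GAAA pair, or to its reverse complement, in capitals. IFIT1, IFIT3, IFI27 and ISG20 are shown because their signals differed at least 2-fold in some comparison, and ISG15 and BST2 because theirs did not.
IFIT1, chr10:89392488-89392547, plus strand: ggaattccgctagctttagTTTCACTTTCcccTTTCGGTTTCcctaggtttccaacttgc
IFIT3, chr10:89327833-89327892, plus strand: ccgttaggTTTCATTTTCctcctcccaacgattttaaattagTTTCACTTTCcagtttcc
IFI27, chr14:94110609-94110668, plus strand: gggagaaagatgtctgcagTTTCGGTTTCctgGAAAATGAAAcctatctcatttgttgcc
ISG20, chr15:88638922-88638981, plus strand: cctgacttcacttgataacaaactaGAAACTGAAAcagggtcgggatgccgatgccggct
ISG15, chr1:1013362-1013421, plus strand: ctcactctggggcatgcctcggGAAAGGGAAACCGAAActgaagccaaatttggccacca
BST2, chr19:17405723-17405782, minus strand: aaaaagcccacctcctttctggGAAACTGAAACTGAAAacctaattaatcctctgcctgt

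PARP9 and DTX3L, neighbours read in opposite directions, share 1 match, at chr3:122564332-122564341, which lies in both promoters. Among measured genes, the 22 with the motif had a median log2 difference of -0.41 with stimulation in the control line and the 9 without it -0.61, with 3 and 1 of them at least 2-fold lower. Both medians were thus below 0, and the difference between them was not tested.

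Over the module, signals were mostly lower after stimulation in both lines, by less than 2-fold for most genes. Differences below are of log2 of the signal plus 14.1, a pseudocount that understates the change of dim genes, and a gene is counted as higher or lower where it differs at least 2-fold. In the control line none of the 38 genes was higher with stimulation and 6 were lower, where 7.57% of all genes were higher and 6.44% lower. IFIT1 and IFI27 are among the 6 and passed the filter through solvent arrays alone, which favours a lower call. Among the 36 genes with both arrays at or above the filter, 4 were lower and none higher. That count was not made over all genes. The log2 difference was below 0 for 32 of the 38 and for 54.7% of all genes, with a median of -0.55 beside -0.07 over all genes. In the shIKKE line 1 gene was higher and 1 lower, against 10.3% and 2.68% of all genes (1417 and 368 of 13717). After quantile normalization 1 was higher and 3 lower, beside 1018 and 689 of all genes. After cyclic loess 1 was higher and 2 lower, beside 1007 and 615. In the shIKKE line 27 of the 38 were below 0 (50.8% of all genes), with a median of -0.27 beside -0.01. The 10 measured housekeeping genes were all below 0 there too, with a median of -0.26. Both lines, which share no array in this comparison, had 24 of the 38 genes below 0 in each. By their representative probe sets 3 were above 0 in each (OAS3, EIF2AK2 and XAF1). Over all genes 34.2% were below 0 in both and 28.6% above. None of the 38 was at least 2-fold higher in both lines (3.29% of all genes). Set against each other, the shIKKE response was at least 2-fold above that of the control line for 6 genes (MX2, PML, ISG20, IFI27, OASL and PSMB9) and below it for none, against 11.4% and 4.67% of all genes, and 11 of the 38 differences of responses were below 0 (44.6% of all genes).

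**Figure D1:**
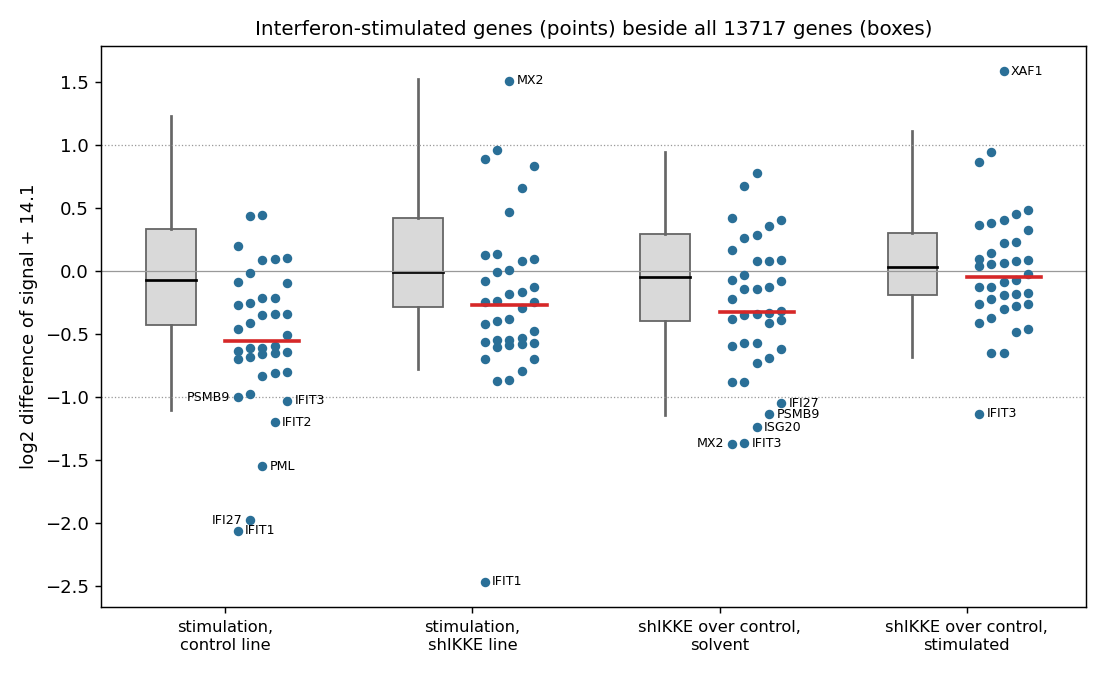
Log2 differences (y axis, of signal plus 14.1) in the 4 comparisons (x axis). Points are the 38 interferon-stimulated genes with their median as a red bar; boxes show the quartiles and median of all 13717 genes and whiskers their 5th and 95th percentiles. The median of the module lies at -0.55, -0.27, -0.32 and -0.05 from left to right, and genes at least 2-fold apart are named.

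The control line with solvent had the highest of the 4 signals for 23 of the 38 genes, where 31.7% of all genes had their highest signal on that array. The shIKKE line with solvent was highest for 7 (24.6% of all genes), the stimulated shIKKE line for 5 (24.7%) and the stimulated control line for 3 (18.9%). Because 1 array enters both the stimulation response of the control line and the difference between the lines with solvent, the 2 comparisons are not independent. When the shIKKE array with solvent served as baseline instead, the difference between lines was added. Then 1 gene was higher (MX2) and 1 lower (IFIT1) in the stimulated control line, and the median was -0.17. This baseline was not applied to all genes, so that no share stands beside these values.

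**Figure D2:**
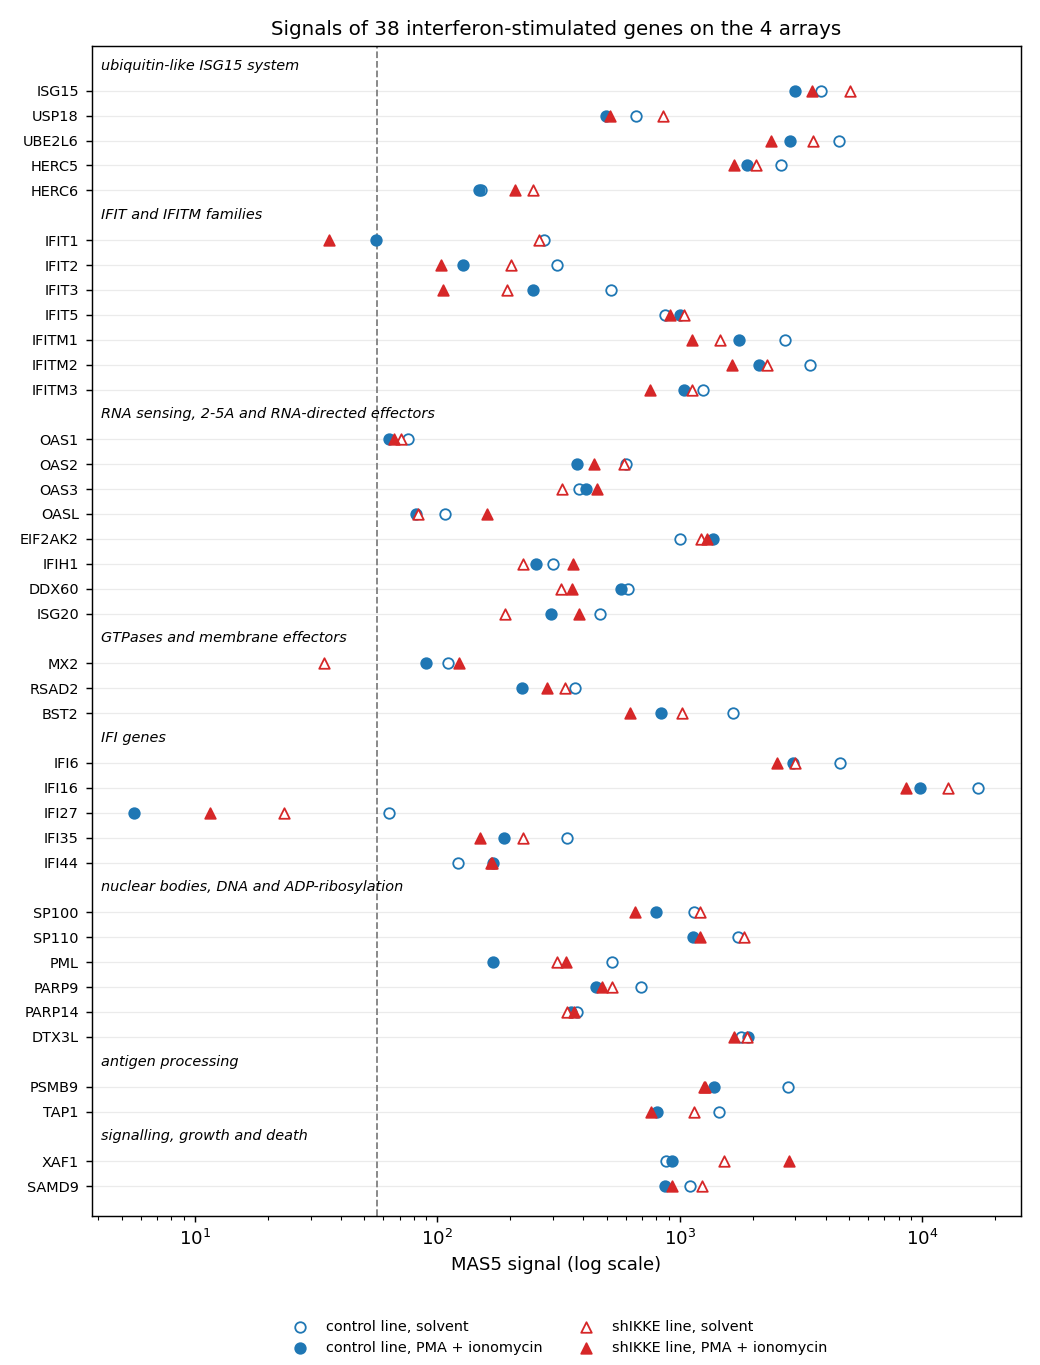
MAS5 signal (x axis, log scale) of each of the 38 genes (y axis, grouped by role) on the 4 arrays, with circles for the control line, triangles for the shIKKE line, open symbols for solvent and filled symbols for PMA and ionomycin. The dashed line is the filter at 56.4; IFIT1, MX2 and IFI27 cross it, and the open circle is the rightmost symbol for 23 genes.

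The IFIT genes are given first. In this and the following accounts, paired signals are with solvent and then with stimulation, in the control line first. IFIT proteins bind viral RNA that lacks the marks of host messenger RNA and block its translation. IFIT1 read 277 in the control line with solvent and 55.7 with stimulation, and 262 and 35.9 in the shIKKE line. Both stimulated arrays were thus below both solvent arrays, with log2 differences of -2.06 and -2.47, and it was the 1 gene of the module at least 2-fold lower in both lines, as were 0.773% of all genes. The signal of IFIT1 lay below the filter on both stimulated arrays, so that its lower level there is poorly measured.

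IFIT2 read 312 and 128 in the control line and 201 and 104 in the shIKKE line, log2 differences of -1.20 and -0.87. A dimmer IFIT2 probe set read 45.4 and 10.2, then 38.8 and 84.6, and so went the other way in the shIKKE line. IFIT3 read 520.1 and 248 in the control line and 193 and 105 in the shIKKE line. Stimulated signals were lower in both lines (log2 -1.03 and -0.80), and those of the shIKKE line were lower in both treatments (log2 -1.37 with solvent, -1.13 with stimulation). The dimmer IFIT3 probe set, at 147, 121, 103 and 85.9 in the same order, had each of these directions with differences of -0.26, -0.23, -0.46 and -0.43. With the median of both probe sets IFIT3 was within 2-fold in the control line (-0.64) and between the lines (-0.91 and -0.78). IFIT5 differed little, with 870.3 and 999 in the control line and 1044 and 916 in the shIKKE line.

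IFITM proteins sit in membranes and hinder the fusion of viruses with the cell. IFITM1 read 2710.5 and 1765 in the control line and 1462 and 1120.0 in the shIKKE line. IFITM2 read 3435 and 2134, then 2302 and 1647, and IFITM3 read 1249.7 and 1045, then 1128 and 757. All 3 were lower with stimulation in each line and lower in the shIKKE line in each treatment, by log2 differences between -0.88 and -0.15. Their sequences are much alike and probes can share signal between them, so that they are not 3 separate readings. Of the 7 IFIT and IFITM genes together, 3 were at least 2-fold lower with stimulation in the control line (6.44% of all genes), and the shIKKE line had 1 (2.68%). The medians were -0.68 and -0.57, and all 7 were below 0 with stimulation in the shIKKE line (50.8% of all genes).

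By their representative probe sets, the genes of the ISG15 system lay within 2-fold in all comparisons. ISG15 is a ubiquitin-like protein, UBE2L6 is the enzyme that conjugates it, HERC5 is its main ligase and USP18 removes it and damps the interferon receptor. ISG15 read 3822 and 2989 in the control line and 5064 and 3505 in the shIKKE line, and USP18 read 662 and 495, then 851 and 518. Both were lower with stimulation and somewhat higher in the shIKKE line with solvent (log2 0.40 and 0.36). UBE2L6 read 4532 and 2860.4, then 3547 and 2380.1, and HERC5 read 2624 and 1902, then 2064 and 1680.1, lower both with stimulation and in the shIKKE line. HERC6, a relative of HERC5, read 151 and 149, then 249 and 209 (log2 0.68 and 0.45 between the lines). A dimmer HERC6 probe set, above the filter on 1 array alone, read 77.1 and 10.7, then 37.4 and 31.04. It gave log2 -1.88 with stimulation in the control line, and -0.82 and 0.86 between the lines. All 5 were below 0 with stimulation in each line, with medians of -0.41 and -0.53.

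Of 8 genes for RNA sensors and RNA-directed effectors, 6 were below 0 with stimulation in the control line (median -0.22), 2 were in the shIKKE line (median 0.30), and none of the representative probe sets differed 2-fold with stimulation in either line. With the median of probe sets OAS1 was at least 2-fold lower in the control line, and with no pseudocount ISG20 was higher in the shIKKE line. The oligoadenylate synthetases make the messenger that activates RNase L. OAS2 was lower with stimulation (603 and 378, then 589 and 443), and a dimmer OAS2 probe set gave log2 -1.10 and -1.37. The representative OAS3 probe set was not lower (384 and 412, then 327 and 456). A dimmer one was lower in both lines (93.5 and 63.3, then 113 and 40.8; log2 -0.48 and -1.21), so that the OAS3 probe sets disagreed. OAS1 was close to the filter at 63.3 to 75.8. OASL, a relative that aids RNA sensing, read 107 and 81.5 in the control line and 83.4 and 159.9 in the shIKKE line, and IFIH1, the RNA sensor MDA5, read 300.1 and 256, then 226 and 364. EIF2AK2, the kinase PKR that halts translation, read 1003 and 1367, then 1227 and 1297. DDX60, a helicase, read 609.6 and 572 in the control line and 324 and 358 in the shIKKE line, lower in the latter in both treatments (log2 -0.88 and -0.65).

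ISG20, an exonuclease, had the largest of these differences. It read 469 with solvent and 295 with stimulation in the control line, and 191 and 385 in the shIKKE line. The shIKKE line was lower with solvent (log2 -1.24) and not with stimulation (0.37), and stimulation went opposite ways in the lines (-0.64 and 0.96). Its other probe set, at 486, 244, 235 and 302, had the same 4 directions.

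Among effectors at membranes, MX2, a GTPase that blocks nuclear entry of some viruses, read 111 and 89.7 in the control line and 34.2 and 123 in the shIKKE line. The solvent array of the shIKKE line was the low one, below the filter, which gave log2 differences of 1.51 for stimulation in that line and -1.37 between the lines with solvent. With a pseudocount of 50 the latter was -0.93, within 2-fold. Its relative MX1 read 21.1 and 11.03, then 4.56 and 8.29, all below the filter. RSAD2, or viperin, read 371 and 223, then 338 and 282. BST2, or tetherin, which holds budding virions on the cell, read 1659 and 839, then 1022 and 626, and so was lower with stimulation in each line (log2 -0.97 and -0.70).

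Of the genes named IFI, the DNA sensor gene IFI16 read 17061 and 9794 in the control line and 12833 and 8604 in the shIKKE line. Stimulated signals were lower in both lines (log2 -0.80 and -0.58), and the other 2 IFI16 probe sets gave -0.83 and -0.55, and -1.09 and -0.94. IFI6, a mitochondrial and endoplasmic reticulum protein, read 4583 and 2948, then 2983 and 2530.2, and IFI35 read 343 and 189, then 226 and 151. IFI27 read 63.4 in the control line with solvent and 5.60, 23.4 and 11.6 on the other arrays, so that 1 array alone was above the filter and its log2 difference of -1.98 rests on that array. IFI44 read 122 and 170.3, then 168 and 167, and IFI44L read 1.85 and 1.0025, then 20.4 and 4.20, below the filter on all arrays. TRIM22, a ubiquitin ligase that restricts viruses, was also below it, at 26.02 and 35.004, then 5.30 and 15.3.

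Nuclear body genes gave probe sets that disagreed. PML is the organizer of nuclear bodies, and SP100 is a body component. The PML probe set with the highest mean level read 525 and 170.2 in the control line and 311 and 341 in the shIKKE line (log2 -1.55 and 0.13 with stimulation). Over the 8 PML probe sets past the filter the difference in the control line ran from -1.55 to 0.43. It was -0.16 when the median signal level of the probe sets was taken on each array first. As the probe sets disagreed, no direction is given for PML as a gene. The counts of the module hold PML by its representative probe set alone, also where PML is named. SP100 probe sets likewise ran from -1.82 to 1.38. Its representative one read 1142 and 798, then 1208 and 654. SP110 read 1738 and 1133, then 1845 and 1212. PARP9 and its partner DTX3L, an ADP-ribosyltransferase and a ubiquitin ligase that work as a complex, read 690.1 and 452, then 525 and 479, and 1789 and 1913, then 1889 and 1678. PARP14 read 379 and 355, then 342 and 365. A dimmer PARP14 probe set, above the filter on the stimulated arrays alone, read 3.97 and 69.9, then 17.4 and 87.6 (log2 2.22 and 1.69 with stimulation).

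The antigen-processing genes of the list are PSMB9 and TAP1. PSMB9, a subunit of the immunoproteasome, read 2802 and 1391 in the control line and 1266 and 1271 in the shIKKE line, so that the control line with solvent stood alone above the other 3 arrays. Its log2 differences were -1.003 with stimulation in the control line and -1.14 between the lines with solvent, and 0.01 and -0.13 in the comparisons that do not use that array. With quantile normalization the first of these was -0.99, and with cyclic loess -0.96, within 2-fold. TAP1, the peptide transporter encoded next to PSMB9, read 1452 and 809.9, then 1149.6 and 762, lower with stimulation in each line (log2 -0.83 and -0.58).

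XAF1, a proapoptotic protein that counters the caspase inhibitor XIAP, read 879 and 933 in the control line and 1519 and 2823 in the shIKKE line. Both arrays of the shIKKE line were above both arrays of the control line, with log2 differences of 0.78 with solvent and 1.58 with stimulation, the latter the 1 difference at least 2-fold higher in that comparison (5.99% of all genes). Its other 2 probe sets gave 1.16 and 1.32, and 0.10 and 0.63. SAMD9, a restriction factor of poxviruses, read 1105 and 870.4, then 1242 and 927.

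**Figure D3:**
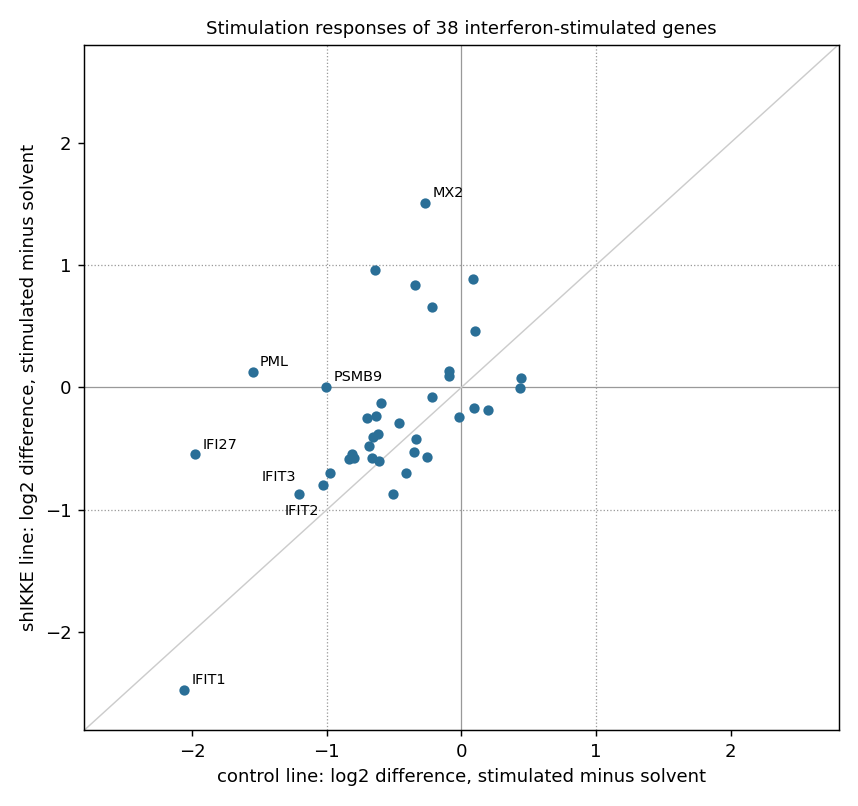
Log2 difference with stimulation for the control line (x axis) against that for the shIKKE line (y axis) for the 38 genes; dotted lines mark 2-fold and the diagonal marks equal values. IFIT1 lies past 2-fold in both lines, MX2 is above 2-fold in the shIKKE line alone, and 24 genes lie below 0 on both axes.

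Averaged over the lines, no member passed for stimulation by limma (additive model of line and stimulation over the 4 arrays, Benjamini-Hochberg adjusted p at most 0.05 over all genes), where 1 of 13717 genes passed (0.00729%). At an unadjusted limma p under 0.05, 9 of the 38 members were lower and none higher, beside 13.8% of all genes in either direction. With no pseudocount 5 members were lower, beside 11.6% of all genes in either direction. With the error variance following the level, 17 members were lower and 1 higher, beside 18.8% of all genes. IFIT1 and IFI27 are among the 9 and passed the filter through solvent arrays alone. IFIT1 had the smallest value, with an average log2 difference of -2.26 ± 0.26 (SE, 4 arrays; limma adjusted p = 0.104), lower in both lines. With the error variance following the level, 3 of the 38 members passed (IFIT1, BST2 and IFI16, all lower), beside 1044 of all genes (7.61%). With a pseudocount of 50, IFIT1 passed, beside 512 of all genes (3.73%). With 1 residual degree of freedom, the model takes as error how far the responses of the lines differ, and no spread of replicates enters.

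The difference between the lines asks what the hairpin against IKKε goes with. With solvent, 5 of the 38 genes in the shIKKE line were lower by at least 2-fold (MX2, IFIT3, ISG20, PSMB9 and IFI27) and none higher, against 6.68% and 4.34% of all genes. The log2 difference was below 0 for 27 of 38 and for 53.7% of all genes, with a median of -0.32 beside -0.05. With stimulation 1 was higher (XAF1; 5.99% of all genes) and 1 lower (IFIT3; 2.37%). After quantile normalization 2 were higher and 1 lower, beside 680 and 392 of the 13717 genes. With stimulation 20 of 38 were below 0 (46.5% of all genes), and the median was -0.05 beside 0.03. Between these 2 comparisons, which share no array, 15 of the 38 genes were below 0 in both and 6 above 0 in both (27.4% and 27.2% of all genes), and IFIT3 was the 1 gene at least 2-fold lower in both (0.612% of all genes). No gene of the 38 was 2-fold higher in both (0.751%).

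**Figure D4:**
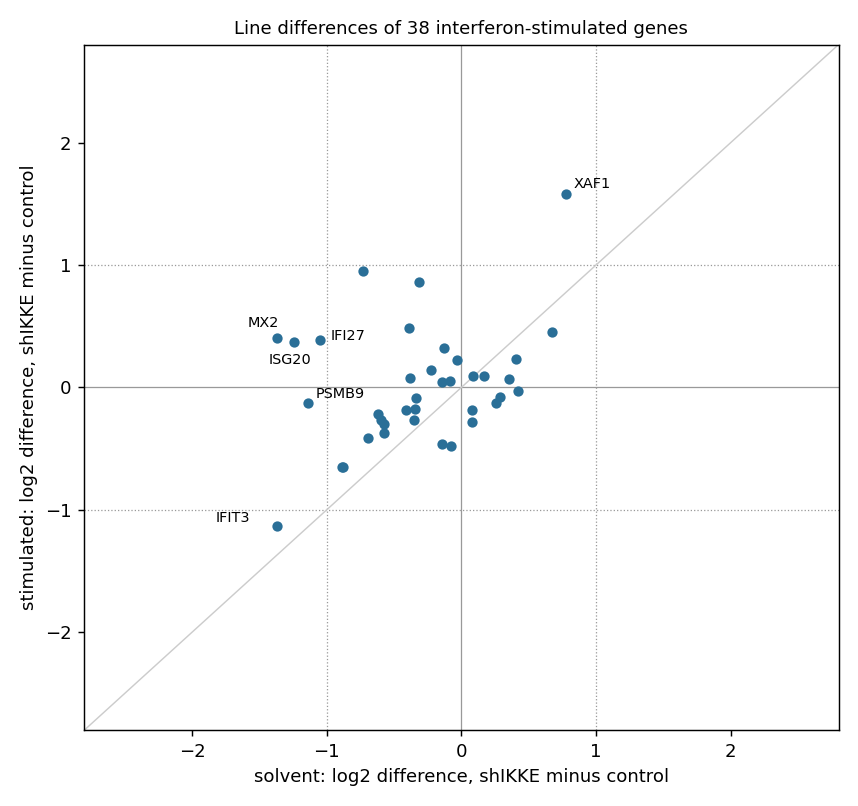
Log2 difference of the shIKKE line over the control line with solvent (x axis) and with stimulation (y axis) for the 38 genes; dotted lines mark 2-fold and the diagonal equal values. IFIT3 lies at -1.37 and -1.13, XAF1 at 0.78 and 1.58, and MX2, ISG20, IFI27 and PSMB9 are past 2-fold with solvent alone.

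Averaged over the treatments, no member passed for the line by limma, and 0 of 13717 genes did. At an unadjusted p under 0.05 there were 4 members (IFIT3, DDX60 and IFITM1 lower, XAF1 higher), beside 7.29% of all genes. IFIT3 had an average log2 difference of -1.25 ± 0.25 (SE, 4 arrays; limma adjusted p = 0.564) and XAF1 one of 1.18 ± 0.31 (SE, 4 arrays; limma adjusted p = 0.591), each with its direction in both treatments. With the error variance following the level, these 2 passed, beside 232 of all genes (1.69%).

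Probe sets of a gene gave a further reading within the same arrays. Of 20 genes with several probe sets past the filter, 11 had all of them below 0 with stimulation in the control line, 2 had all above 0 (IFIT5 and EIF2AK2) and 7 were mixed. In the shIKKE line 8 were all below 0, 4 all above (OASL, ISG20, PARP14 and XAF1) and 8 mixed. Between the lines with stimulation, 4 genes had all probe sets below 0 (IFIT3, IFIT5, EIF2AK2 and IFI16), 6 all above and 10 were mixed. With solvent 8 were all below 0, 4 all above and 8 mixed. These counts were not made over all genes with several probe sets, so that no share stands beside them. Taken singly, 56 of the 75 probe sets were below 0 with stimulation in the control line (50.2% of all probe sets past the filter). In the shIKKE line 46 were (48.2%). Over the 75 probe sets, 16 were at least 2-fold lower with stimulation in the control line and 2 higher (6.38% and 10.1% of all probe sets past the filter). Probe sets of a gene share the RNA sample and are not replicates.

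**Figure D5:**
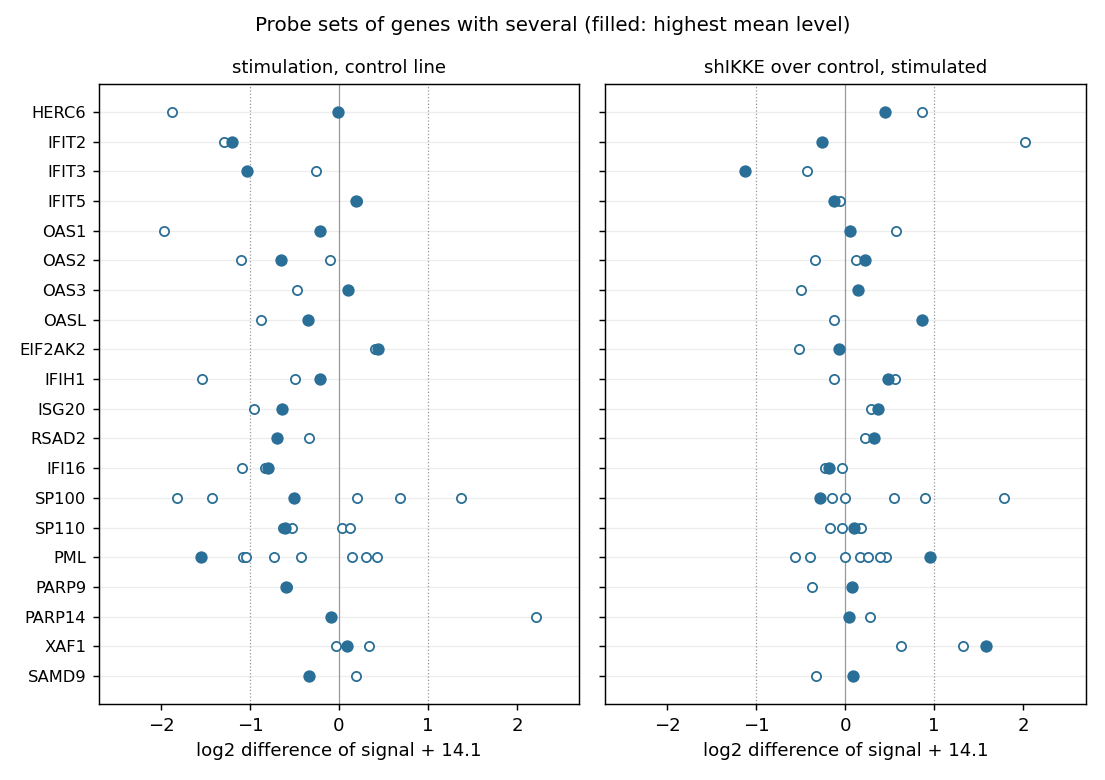
Log2 difference (x axes) of each probe set past the filter for the 20 genes with several (y axis), with stimulation in the control line (left) and for the shIKKE line over the control line when stimulated (right); filled points are the probe sets with the highest mean level. The IFI16 points lie together at -1.09 to -0.80 on the left, while PML and SP100 spread to both sides of 0.

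Other genes of the interferon pathway were measured in the same way. Of 18 ligand genes with a probe set, 14 were below the filter on every array, among them IFNB1, the first interferon made on virus sensing, at 2.11 to 2.89. IFNG, the interferon of activated T cells, read 23.5 and 189.8 in the control line and 37.4 and 159 in the shIKKE line (log2 2.44 and 1.75), with both solvent signals below the filter and so poorly measured. IFNL1, IFNA14 and IFNA17 were past the filter on 1 or 2 arrays with no more than 102. Of 9 receptor and kinase genes, IFNGR2, a chain of the interferon gamma receptor, read 2018 and 5836, then 1597 and 4820.2, and was higher with stimulation in both lines (log2 1.53 and 1.59). IFNAR2, a chain of the type I receptor, read 3287 in the control line with solvent and 1307, 1570.4 and 1407 on the other arrays, again with that 1 array alone high. IFNAR1, the other chain, lay between 591 and 761.

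Of 6 transcription factor genes past the filter, IRF1, named after its values were seen, was lower with stimulation in the shIKKE line (1512 and 728, log2 -1.04) and read 1331 and 1015 in the control line. The others lay within 2-fold. IRF9, part of the complex on the response element, read 372 and 439.9, then 314 and 407. Among 12 sensors, adaptors and kinases, the RNA receptor gene TLR3 read 169 and 42.2 in the control line and 139 and 55.4 in the shIKKE line, lower with stimulation in both (log2 -1.70 and -1.13), where both stimulated signals were below the filter. The kinase gene TBK1 read 1664 and 1932, then 2216 and 2032. Over the 36 pathway genes past the filter, 3 were higher and 4 lower with stimulation in the control line (7.57% and 6.44% of all genes), and 8 and 3 in the shIKKE line (10.3% and 2.68%), with medians of 0.03 and 0.27. Between the lines, 1 was higher and 3 lower with solvent (4.34% and 6.68%), and 4 and 2 with stimulation (5.99% and 2.37%).

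A further list of interferon-stimulated genes outside the 42 was measured the same way, with 43 genes past the filter. With stimulation in the control line 1 was higher, TNFSF10, which encodes the death ligand TRAIL (643 and 1624, log2 1.32), and 2 were lower, GBP1, an interferon-inducible GTPase (678 and 260.3, log2 -1.34), and CMPK2, a mitochondrial nucleotide kinase (3711 and 1568, log2 -1.24). Over all genes 7.57% were higher and 6.44% lower, and the median of the 43 was -0.24. In the shIKKE line TNFSF10 (244 and 775) and the antiviral deaminase gene APOBEC3G (499 and 1036) were higher and none was lower. Over all genes these shares were 10.3% and 2.68%, and the median of the list was -0.16. Between the lines, with solvent 6 of these genes were lower in the shIKKE line and none higher (6.68% and 4.34% of all genes). With stimulation 3 were lower and GBP1 was higher (log2 1.11), against 2.37% and 5.99%, and the medians were -0.26 and -0.10. CD38, an ectoenzyme gene, was lower in both treatments (125 and 61.9, then 5.97 and 15.2; log2 -2.79 and -1.38), with both signals of the shIKKE line below the filter, and so was TNFSF10 (log2 -1.35 and -1.05). All 10 measured housekeeping genes lay within 2-fold in the 4 comparisons, with a median of 0.04 for stimulation in the control line.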

How the data were processed

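Total RNA of 4 Jurkat samples was labelled with biotin and hybridised to 1 array each; groups came from the sample titles. The authors deposited an intensity for every probe set, which per the submitters' processing notes is a linear MAS5 signal; which version, scaling target or detection calls were used is not given in the sources used here. The 2% trimmed mean was 500.07 on every array, and the table had 0 columns left out. Gene names came from the platform annotation (41091 probe sets with 1 symbol, 1801 with several, 11721 with none, 62 controls left out); 41037 of the first matched RefSeq by gene ID. Signals were taken as log2 of signal plus 14.1, the 25th percentile of all signals. Among probe sets past the filter of 56.4, the one with the highest mean log2 level stands for its gene. MAS5 spreads low signals, and scaling to a mean leaves the dim end free; the median signal ran from 48.8 to 69.1.

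Effects averaged over line or stimulation came from lmFit and eBayes on the deposited signals (two-sided, limma 3.58.1, R 4.3.3). The fitting code was also run on simulated data with known changes. The rest used Python 3.11.15, pandas 2.3.3, numpy 2.4.6 and matplotlib 3.10.9. Alternatives were 0 and 50 as pseudocount, no filter or a stricter one, quantile and cyclic loess normalization, the median of a gene's probe sets, another baseline array and a variance trend. The rule for named genes allowed every member by its level, and asked for all 4 signals of members at least 2-fold apart in some comparison, of members whose probe sets disagree 2-fold both ways, of STAT2, ISG15 and MX1, and of the brightest and dimmest 3. Of the other lists it allowed at most 4 genes per comparison, the largest at least 2-fold apart, besides IKBKE, TBK1, IRF9, IFNB1, IFNAR1 and IFNAR2. Not every gene the rule allows is reported here. The lists were the interferon pathway, other interferon-stimulated genes, housekeeping genes and cell type markers. Members and lists were chosen with earlier results of these data known. Whether samples came from separate cultures is not in the labels.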

Additional observations from a re-analysis of the deposited data

Results flagged for a closer look

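In 5 genes the log2 difference passed 2-fold in one arm and had the other sign in the other arm, with 1 array each, so that the difference of the arms was not tested. For stimulation, MX2 (-0.27 in the control line, 1.51 in the shIKKE line) differed by 1.78 between the lines, PML (-1.55 and 0.13) by 1.68 and PSMB9 (-1.003 and 0.01) by 1.01. For the shIKKE line over the control line, MX2 (-1.37 with solvent, 0.41 with stimulation) differed by 1.78, ISG20 (-1.24 and 0.37) by 1.61 and IFI27 (-1.05 and 0.38) by 1.43. The PML probe sets disagreed in direction, and PSMB9 was within 2-fold after quantile normalization or cyclic loess. IFI27 was above the filter on the control solvent array alone, so that its sign with stimulation compares signals below the filter, and its difference with solvent was -0.63 with a pseudocount of 50. MX2 was below the filter on the shIKKE solvent array.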

How the results depend on the processing

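With 1 array per group no replicate could be left out and no replicates could be paired, and the labels give no replicate numbers. The additive model already takes stimulation within each line. Of the differences of single genes at least 2-fold apart, over all alternatives, 90 kept direction and size past 2-fold, 15 kept direction within 2-fold and 2 reversed, IFIT3 (log2 0.34) and PSMB9 (0.13) in the control line against the shIKKE solvent baseline. Counts of members higher and lower that moved by over 1.5 times were as follows; of the rest, the 6 lower in the control line became 4 or 5 under 5 settings and the 5 lower with solvent 6 or 4 under 2. Stimulation in the control line (0 and 6) gave 1 higher with the median of probe sets (PARP14), and 1 and 1 with the shIKKE solvent baseline. Stimulation in the shIKKE line (1 and 1) gave 2 and 2 with no pseudocount, 3 lower with quantile normalization and 2 lower with cyclic loess. It gave 0 and 0 among genes with both arrays past the filter, and 9 lower with the control solvent baseline. Counts with another baseline or with both arrays past the filter were not made over all genes. The lines with solvent (0 and 5) gave 1 higher with no filter or the median of probe sets, and 3 lower with a pseudocount of 50 or both arrays past the filter. The lines with stimulation (1 and 1) gave 3 higher with no pseudocount, 2 higher with quantile normalization, and 0 lower with a pseudocount of 50 or the median of probe sets. For stimulation, 1 member passed limma with a pseudocount of 50 (3.73% of all genes), 3 with the variance trend (7.61%) and 0 otherwise. For the line, 2 passed with the trend (1.69% of all genes) and 0 otherwise. Over all genes, quantile normalization moved the share of calls that were higher from 54.0% to 42.8% for stimulation in the control line and from 79.4% to 59.6% in the shIKKE line. Signals under 56.4 limit IFIT1, MX2 and IFI27; causes were not tested.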
